A study of Mus musculus with 4 samples.

Results

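The PRDM genes were followed in cells of the *Prdm13* lineage of the mouse neural tube, with and without PRDM13. The 9 genes described are *Prdm2*, *Prdm6*, *Prdm8*, *Prdm10*, *Prdm12*, *Prdm13*, *Prdm14*, *Prdm15* and *Prdm16*, found by their symbols among the 24421 genes of the expression table. RNA was sequenced from GFP+ cells that had been sorted out of E11.5 neural tubes of *Prdm13* GFP/+ embryos, the heterozygous controls (Het), and of *Prdm13* GFP/GFP embryos, the homozygous mutants (Homo). The comparison asks how gene expression in the lineage differs when PRDM13 is missing. In each genotype the RNA of several embryos was combined into 1 pool, and 2 libraries were made from the pool.

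The GFP allele was made by inserting GFP into the first exon of *Prdm13*, which disrupts the gene, and all 4 libraries come from embryos that carry at least 1 copy of it. The embryos were of a mixed ICR and C57Bl/6 background. Expression of GFP from the *Prdm13* locus defined the sort gate, so the gate itself depends on the activity of this gene. Because both libraries of a genotype were prepared from the same pool, they are technical replicates, and each SD and p-value measures the spread between libraries and holds no variation between embryos. In bulk RNA of this kind, fewer cells of a type and less RNA per cell cannot be told apart. The sorted cells held transcripts of neural progenitors and neurons, with *Sox2* at 111 to 163 and *Elavl3* at 124 to 146 RPKM over the 4 libraries. The dorsal neural tube factor *Pax3* was at 69.9 to 75.2 RPKM.

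PRDM proteins are a family of transcriptional regulators defined by a PR domain, which is related to the SET domain of histone methyltransferases, followed in most members by C2H2 zinc fingers. Some members methylate histones themselves, and others bind DNA or a partner factor and recruit methyltransferases, deacetylases or corepressors such as CtBP. In the developing neural tube, family members act in specific progenitor domains and neuronal lineages. PRDM13 is a repressor that works with bHLH factors in dorsal inhibitory neurons. PRDM12 marks the ventral p1 progenitors that give rise to V1 interneurons, and it is also needed for pain-sensing neurons of the sensory ganglia. PRDM16 is known from neural stem cells and from brown fat, and PRDM8 works as a corepressor of the bHLH factor BHLHE22.

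RPKM counts the reads of a gene per kilobase of exon and per library size. The 12046 genes whose RPKM averaged 1 or more in Het or in Homo were compared with limma on log2(RPKM + 0.1). Genes with an adjusted p under 0.05 and a change of 1.5-fold or more were called. A fold change on this scale understates the change of a gene with a low RPKM. Since the smallest two-sided p of an exact permutation test is 0.333 with 2 libraries a side, the test takes its spread from all genes. Of the 9 PRDM genes, 7 passed the filter and were tested. Of these, *Prdm12* and *Prdm13* were called higher and *Prdm16* was called lower in the *Prdm13* mutants, while the other 4 were not called. Across all genes tested, 6.33% were called, 3.65% higher and 2.67% lower. *Prdm6* and *Prdm14* stayed under the filter in both genotypes.

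The promoters of the 3 called genes are shown because these are the family members whose transcript levels rose or fell. The 250 bases before the RefSeq start of each gene, read 5′ to 3′ on the strand of the gene in GRCm38.p6, were searched on both strands for the E-box CANNTG, the site of bHLH factors, and for the TC-box TTTCCC, which accompanies the E-box in sites of the PTF1 complex. For *Prdm12* the window is chr2:31639787-31640036 on the plus strand. For *Prdm13* it is chr4:21685964-21686213 and for *Prdm16* chr4:154636874-154637123, each on the minus strand. The starts used for *Prdm12* and *Prdm16* lie within the full span of the gene. Capitals mark a TC-box.
Prdm12: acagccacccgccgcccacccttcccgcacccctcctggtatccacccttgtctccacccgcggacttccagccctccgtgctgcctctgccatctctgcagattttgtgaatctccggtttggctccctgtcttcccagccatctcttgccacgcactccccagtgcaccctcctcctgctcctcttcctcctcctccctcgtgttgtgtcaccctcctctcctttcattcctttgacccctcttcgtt
Prdm13: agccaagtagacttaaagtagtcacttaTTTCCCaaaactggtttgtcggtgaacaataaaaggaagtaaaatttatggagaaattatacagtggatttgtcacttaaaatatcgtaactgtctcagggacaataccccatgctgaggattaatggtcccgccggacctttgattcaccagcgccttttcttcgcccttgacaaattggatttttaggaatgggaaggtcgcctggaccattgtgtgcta
Prdm16: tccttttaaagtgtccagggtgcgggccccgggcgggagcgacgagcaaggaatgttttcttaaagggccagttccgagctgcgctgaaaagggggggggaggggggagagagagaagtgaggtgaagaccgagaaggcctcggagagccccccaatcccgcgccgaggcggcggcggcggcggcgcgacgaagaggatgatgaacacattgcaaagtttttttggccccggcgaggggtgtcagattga

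The windows of *Prdm12* and *Prdm16* held neither motif. That of *Prdm13* held no E-box and 1 TC-box, TTTCCC, which begins 222 bases before the start. Among 32851 promoter windows of the same length, 66.2% held an E-box, 21.9% a TC-box and 14.2% both. The windows also differ in base composition: 61.2% of the *Prdm12* window and 62.4% of the *Prdm16* window is G or C, against 41.6% of the *Prdm13* window and a median of 52.4% over all windows. Windows of 6 of the 9 genes were searched, 8 windows in all, with 2 for *Prdm10* and 2 for *Prdm15*. Among the genes that were not called, *Prdm8*, *Prdm10* and *Prdm15* held an E-box, and *Prdm10* also held a TC-box. Both motifs of *Prdm10* were in its window 2, and its window 1 held neither. A gene with 2 windows had more sequence in which to match, and the shares of all windows are per window. No match says only that these letters are not in the window.

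*Prdm13*, the targeted gene, spans positions 21675865 to 21685963 of chromosome 4 in GRCm38 (gene ID 230025). It was at 113.9 and 126.8 RPKM in the Het libraries and at 309.5 and 324.5 RPKM in the Homo libraries. Both Homo libraries were far above both Het libraries. The mean level was 120.4 ± 9.10 RPKM in Het and 317 ± 10.6 RPKM in Homo (SD over n = 2 libraries from the same pool, here and for the SDs below), a ratio of 2.63. The log2 fold change was 1.40 (standard error 0.0613, 95% interval 1.25 to 1.54, adjusted p = 3.63e-05). Reads of the transcript from the GFP allele count toward the gene, and so the level measures RNA from the locus and not functional PRDM13. Among all 24421 genes *Prdm13* ranked 490 by mean RPKM in Het and 151 in Homo.

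*Prdm12* (gene ID 381359, chromosome 2 from 31635026 to 31655795) was the family member with the largest fold change of the 7 tested. It was at 0.594 and 0.596 RPKM in the Het libraries and at 13.4 and 15.4 RPKM in the Homo libraries. The groups were wide apart, with each Het library under 1 RPKM and each Homo library over 10 RPKM.

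Whole reads could be recovered from the RPKM values, and for *Prdm12* they were 17 and 27 in Het against 539 and 521 in Homo. The mean rose 24.2-fold, from 0.595 ± 0.0013 to 14.4 ± 1.41 RPKM. The Het libraries lay closer to each other than their reads require: the 44 reads of Het together give 0.596 RPKM with an exact Poisson 95% interval of 0.433 to 0.800. From the pooled reads, 44 against 1060, the ratio of the genotypes was 24.1 with an interval of 17.8 to 33.3, which covers counting error only. The log2 fold change was 4.38 (standard error 0.114, 95% interval 4.11 to 4.65, adjusted p = 5.17e-06). In rank by mean RPKM, *Prdm12* moved from 12511 in Het to 5513 in Homo among the 24421 genes.

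*Prdm16* (gene ID 70673, chromosome 4 from 154316122 to 154637360) went the other way. Its level was 4.15 and 3.92 RPKM in Het and 2.30 and 2.78 RPKM in Homo, from 414 and 618 reads against 322 and 328. Both Homo libraries lay under both Het libraries, and the Homo libraries were further from each other than the Het libraries were. The mean fell from 4.04 ± 0.168 to 2.54 ± 0.343 RPKM, 1.59-fold lower in Homo, and the log2 fold change was -0.65 (standard error 0.124, 95% interval -0.95 to -0.35, adjusted p = 0.0147). This call depends on the libraries used. It was lost without Het replicate 1 (-0.61), without Het replicate 2 (-0.69) and without Homo replicate 1 (-0.52), and held without Homo replicate 2 (-0.78).

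**Figure D1:**
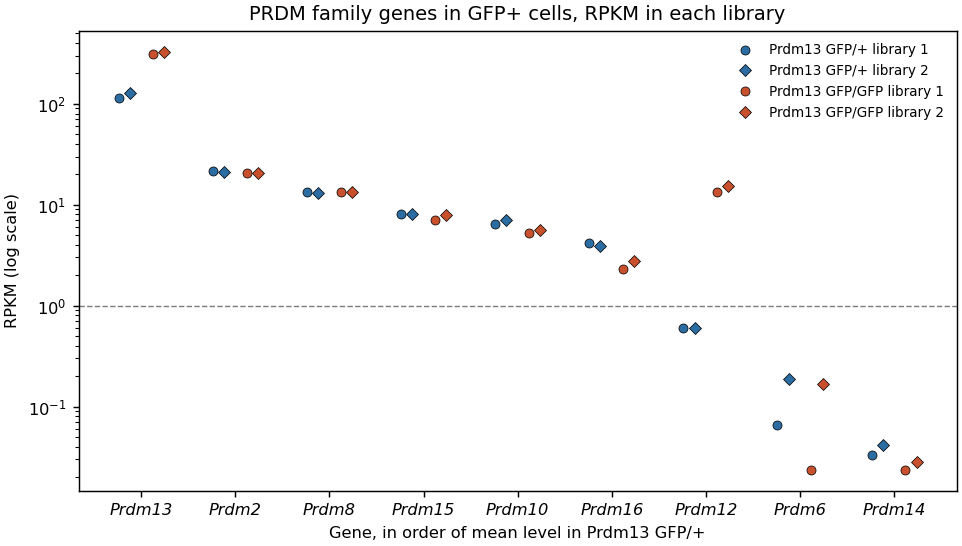
Level of the 9 PRDM genes in each library, in RPKM on a log axis, with Het (*Prdm13* GFP/+) in blue and Homo (*Prdm13* GFP/GFP) in red; the dashed line marks 1 RPKM. *Prdm13* was highest in every library, *Prdm12* moved from under 1 RPKM in Het to 13.4 and 15.4 RPKM in Homo, and *Prdm6* and *Prdm14* lay under the line throughout.

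Among the genes that were not called, *Prdm10*, a zinc finger regulator known to act on the folliculin gene, was closest to a call. It was at 6.49 and 7.06 RPKM in Het and at 5.27 and 5.56 RPKM in Homo. The Homo libraries lay under the Het libraries. The log2 fold change of -0.32 (standard error 0.0801, 95% interval -0.51 to -0.13) had an adjusted p = 0.0371 and fell short of the 1.5-fold minimum. An adjusted p under 0.05 at any fold was reached by 19.7% of all genes tested, and by 4 of the 7 PRDM genes.

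*Prdm2*, also known as RIZ and able to methylate histone H3, was the second most abundant member in each genotype. It was at 21.4 and 21.1 RPKM in Het and at 20.6 and 20.6 RPKM in Homo, and its log2 fold change was -0.045 with a 95% interval of -0.17 to 0.077 (adjusted p = 0.579). The Homo libraries lay just under the Het libraries, and the interval holds 0.

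*Prdm8* was at 13.5 and 13.1 RPKM in Het and at 13.3 and 13.4 RPKM in Homo, so that the libraries of the genotypes overlapped. Its log2 fold change was 0.0073 with a 95% interval of -0.13 to 0.14 (adjusted p = 0.944), and its sign turned when 1 library was left out. *Prdm15*, known from the regulation of pluripotency, was at 8.17 and 8.07 RPKM in Het and at 7.05 and 7.82 RPKM in Homo. The Homo libraries were the lower ones, with a log2 fold change of -0.13 and a 95% interval of -0.31 to 0.055 (adjusted p = 0.290). The libraries did not overlap between genotypes for 6 of the 7 tested PRDM genes, and the same was true of 62.1% of all genes tested.

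**Figure D2:**
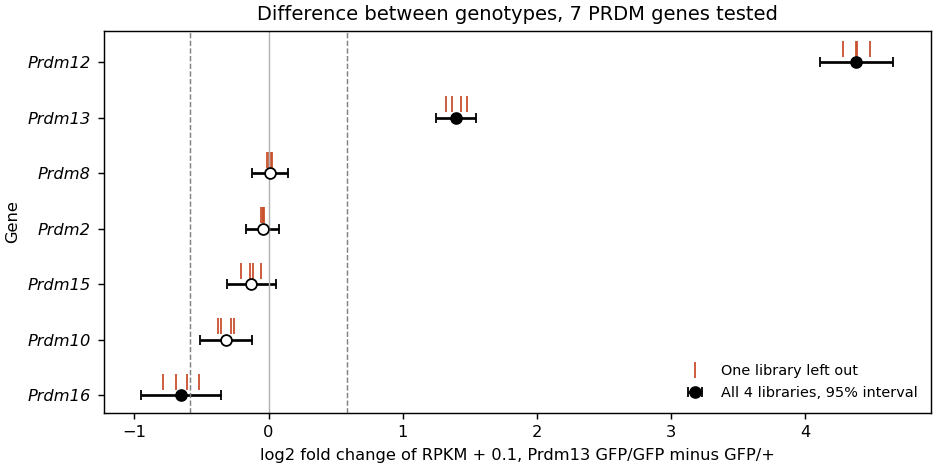
Log2 fold change of RPKM + 0.1, Homo minus Het, for the 7 PRDM genes tested, with 95% intervals from limma; filled points are called, red ticks give the value with 1 library left out, and dashed lines mark a 1.5-fold change. *Prdm12* (4.38) and *Prdm13* (1.40) stand clear of the lines, the interval of *Prdm16* (-0.95 to -0.35) crosses its line, and *Prdm8*, *Prdm2*, *Prdm15* and *Prdm10* lie between the lines.

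*Prdm6*, known from smooth muscle, and *Prdm14*, known from germ cells and pluripotent cells, were near the limit of detection. *Prdm6* was at 0.0664 and 0.189 RPKM in Het and at 0.0236 and 0.169 RPKM in Homo, from 2 and 9 reads against 1 and 6. The libraries of the genotypes overlapped, and the ratio of the pooled reads was 0.635 with a counting interval of 0.209 to 1.80. *Prdm14* had 1 and 2 reads in Het and 1 and 1 in Homo, none above a floor of 3 reads per library, and no fold is given for it. A difference in either gene was not detectable at this depth of 12168356 to 19348895 recovered reads per library. The markers that fit these 2 genes were low as well: 5 genes of germ and pluripotent cells summed to 0.451 to 0.765 RPKM, with *Dppa3* listed at 0, and 10 genes of mural and mesenchymal cells summed to 5.48 to 6.33 RPKM.

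The order of the family by mean RPKM in Het was *Prdm13*, *Prdm2*, *Prdm8*, *Prdm15*, *Prdm10*, *Prdm16*, *Prdm12*, *Prdm6* and *Prdm14*. Neighbours in this order did not overlap between their 2 libraries in Het. In Homo *Prdm12* moved up to the third place, above *Prdm8* by a ratio of 1.08, and the libraries of these 2 genes overlapped. *Prdm6* and *Prdm14* overlapped as well in Homo, and the other genes kept their order. The distance from *Prdm13* to the next gene, *Prdm2*, grew from a ratio of 5.67 to 15.4.

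Summed over the 9 genes, the level was 168 and 181 RPKM in Het and 371 and 390 RPKM in Homo. *Prdm13* made up 67.7 and 70.1% of this sum in Het and 83.3 and 83.1% in Homo. Without *Prdm13*, the other 8 genes summed to 54.3 and 54.1 RPKM in Het and to 61.9 and 65.8 RPKM in Homo. With *Prdm12* also left out, the sums were 53.7 and 53.5 RPKM in Het and 48.5 and 50.4 RPKM in Homo. Thus the sum of the other 8 genes was higher in Homo with *Prdm12* and lower without it.

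**Figure D3:**
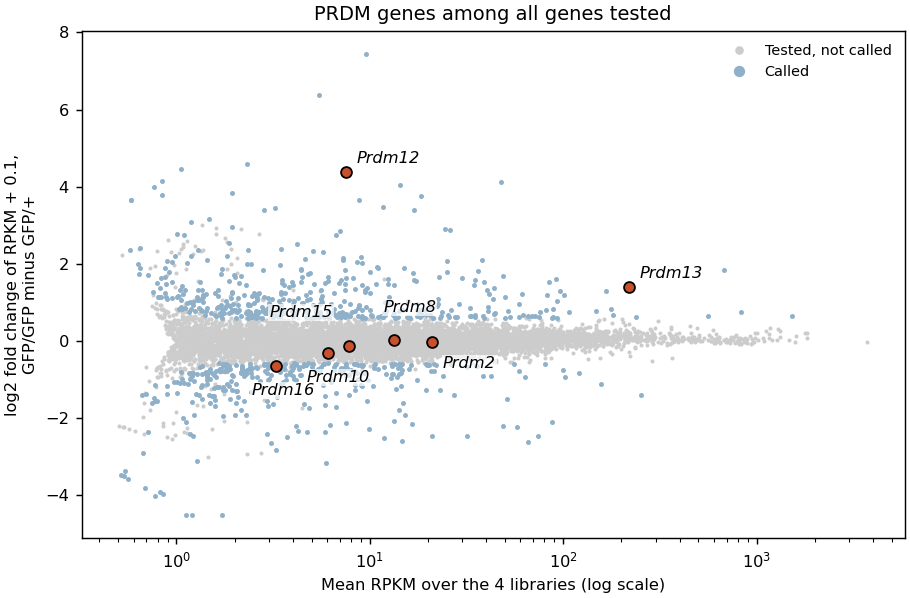
Log2 fold change of RPKM + 0.1, Homo minus Het, against the mean RPKM over the 4 libraries on a log axis, for the 12046 genes tested; blue dots were called, grey dots were not, and the 7 tested PRDM genes are marked in red. *Prdm12* and *Prdm13* lie well above 0, *Prdm16* lies at -0.65 among genes called lower, and the other 4 lie within the band of genes that were not called.

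The family has further members outside the 9 genes, of which 6 were looked up. Of these 6 genes, 5 were tested, 0 were called higher and 1 was called lower, with a median log2 fold change of -0.25 beside 0.010 for all genes tested. The gene called lower was *Mecom* (EVI1), the close relative of *Prdm16*. It was at 3.75 and 3.29 RPKM in Het and at 1.43 and 1.26 RPKM in Homo. Both Homo libraries were under both Het libraries, and the log2 fold change was -1.32 with a standard error of 0.142 (adjusted p = 0.00172).

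PRDM proteins act through cofactors, and most of the genes for these were not called. Of 16 cofactor genes, which encode the methyltransferases EHMT1 and EHMT2 (GLP and G9a), SETDB1 and PRMT5, histone deacetylases, CtBP proteins and others, all 16 were tested, 1 was called higher and 0 were called lower. Their median log2 fold change was 0.016, and the values ran from -0.23 to 1.47. *Cbfa2t2* (0.46, adjusted p = 0.00213) and *Suz12* (-0.23, adjusted p = 0.0215) had an adjusted p under 0.05 but fell short of the fold minimum. The one called higher was *Bhlhe22*, the DNA-binding partner of PRDM8, from 3.87 and 3.92 RPKM in Het to 10.7 and 11.2 RPKM in Homo (log2 fold change 1.47, standard error 0.0701, adjusted p = 5.25e-05). *Prdm8* itself showed the smallest fold change of the family. *Ehmt2*, for comparison, was at 80.9 and 94.6 RPKM in Het and at 88.7 and 99.2 RPKM in Homo, and its libraries overlapped.

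PRDM13 works at sites bound by bHLH factors. Of 7 genes for bHLH factors and their partners, all tested, 3 were called higher, 0 were called lower and 4 were not called, with a median log2 fold change of 0.056. *Ptf1a*, which specifies dorsal inhibitory neurons, rose by 1.81, and the proneural factors *Neurog1* and *Neurog2* rose by 1.79 and 0.81. The E-proteins *Tcf3*, *Tcf4* and *Tcf12* and the PTF1 subunit gene *Rbpj* were not called, with log2 fold changes from -0.20 to 0.056.

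*Prdm12* is known from p1 progenitors and from sensory ganglia, and genes of both were looked at beside it. Of 8 genes listed for p1 progenitors, V1 neurons and the domain next to p1, 6 were tested, 1 was called higher and 4 were called lower. *Dbx1*, a homeobox gene of the ventral progenitor domain next to p1, was at 0.208 and 0.368 RPKM in Het and at 1.42 and 1.58 RPKM in Homo (adjusted p = 0.00889). It passed the filter through its Homo mean alone. Its log2 fold change was 2.08 with a standard error of 0.342. The call was lost under 4 of 16 alternatives: without either Homo library, with no filter, and under limma's treat test. The 4 genes called lower were *Foxd3*, *Lhx1*, *Lhx5* and *Pax2*, and the last 3 of them are also genes of dorsal inhibitory neurons. The part of dorsal neurons in the fall of these 4 genes was not tested. The other 2 genes were under the filter and were not tested. The V1 gene *En1* was at 0.101 and 0.214 RPKM in Het and at 0.771 and 1.03 RPKM in Homo, from 3 and 10 reads against 32 and 36, with both Homo libraries above both Het libraries. The progenitor gene *Nkx6-2* was at 0.227 and 0.401 RPKM in Het and at 0.194 and 0.192 RPKM in Homo.

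Of 14 genes of sensory ganglia, 7 were tested, 5 were called higher and 1 was called lower, and the median log2 fold change was 1.59. The 14 genes summed to 44.1 and 47.6 RPKM in Het and to 173 and 181 RPKM in Homo. Most of each Homo sum came from *Tlx3*, at 86.2 and 94.1 RPKM, and *Pou4f1*, at 52.9 and 52.7 RPKM. Those called higher were *Ntrk3*, *Pou4f1*, *Isl1*, *Prrxl1* and *Tlx3*, of which the last 4 are also expressed by dorsal excitatory neurons of the neural tube. The 7 genes under the filter include the sensory neuron genes *Avil*, at 0.0855 and 0.0900 RPKM in Het and 0.223 and 0.217 RPKM in Homo, and *Scn10a*, at no more than 0.0135 RPKM in any library. The part of sensory ganglion cells in the level of *Prdm12* was not tested.

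*Prdm16* was set beside genes of neural progenitors. Of 12 such genes, all tested, 1 was called higher, 1 was called lower and 10 were not called, and the median log2 fold change was 0.078. *Sox1* fell by 0.68 on the log2 scale, and the glutamate transporter *Slc1a3*, a gene of radial glia, rose by 2.11. Other genes had an adjusted p under 0.05, as did 19.7% of all genes tested, but fell short of the fold minimum. Of these, *Sox2* (-0.48) and *Hes1* (-0.29) were lower. *Sox3* (0.54), *Hes5* (0.42), *Notch1* (0.37) and *Pax6* (0.26) were higher. For *Sox9*, *Nes*, *Vim* and *Fabp7* the adjusted p was over 0.05. The 12 genes summed to 2292 and 2278 RPKM in Het and to 2299 and 2384 RPKM in Homo. Most of each sum came from *Vim*, at 932 to 986 RPKM, and *Fabp7*, at 627 to 704 RPKM. Endothelial cells are another known source of *Mecom*, and 6 endothelial genes summed to 4.17 and 4.75 RPKM in Het and to 3.35 and 3.84 RPKM in Homo. Of these 6 endothelial genes 1 was tested and 0 were called. The tested gene, *Esam*, was at 2.14 and 2.44 RPKM in Het and at 0.995 and 1.58 RPKM in Homo (log2 fold change -0.82, adjusted p = 0.0518), and it was called under 6 of 16 alternatives. The other 5 summed to 2.02 and 2.30 RPKM in Het and to 2.36 and 2.26 RPKM in Homo, and the libraries overlapped. The part of endothelial cells in the levels of *Mecom* and *Prdm16* was not tested.

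**Figure D4:**
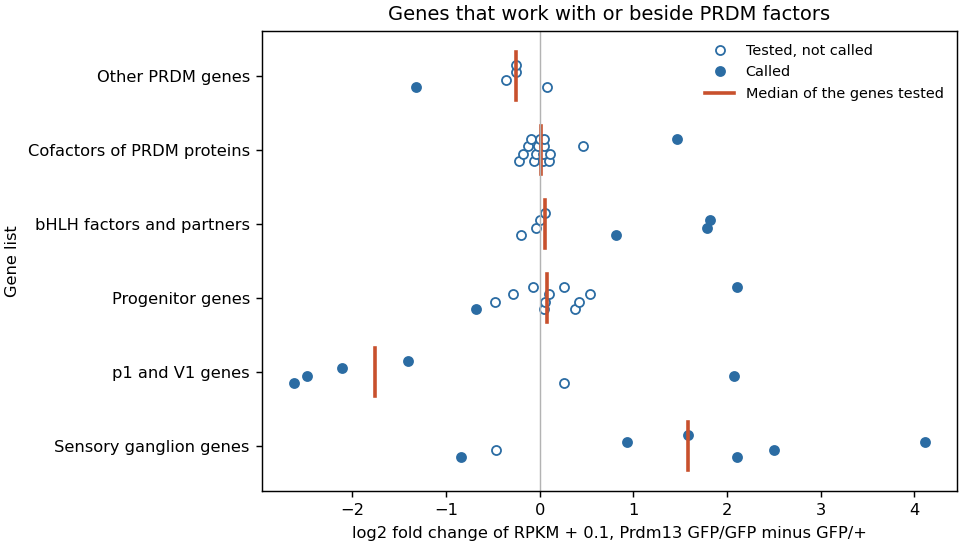
Log2 fold change of RPKM + 0.1, Homo minus Het, of the tested genes of 6 lists; filled points are called, open points are not, and red bars give the median of each list. Cofactor genes center on 0 (median 0.016) with *Bhlhe22* apart at 1.47, and sensory ganglion genes lie mostly above 0. In the p1 and V1 list, *Dbx1*, a gene of the domain next to p1, and *Pax6* lie above 0. *Foxd3*, *Lhx1*, *Lhx5* and *Pax2* lie below it. Of those below, *Lhx1*, *Lhx5* and *Pax2* are also genes of dorsal inhibitory neurons. *En1*, higher in both Homo libraries, and *Nkx6-2*, lower in both, were under the filter and are not drawn.

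For each called member, the tested genes with the most similar pattern were found by the Euclidean distance between their 4 values of log2(RPKM + 0.1), each centred on its own mean, among 12045 genes. For *Prdm12* the nearest were 2 microRNA genes listed at 0 in Het, *Mir7078* (1.92 and 2.28 RPKM in Homo) and *Mir6921* (1.54 and 1.83 RPKM in Homo). With 0 in Het, their fold changes and distances depend on the 0.1 RPKM added before the log. The log2 fold change of *Mir7078* ran from 1.54 to 7.72 over 15 alternatives, with a similar range for *Mir6921*. Neither was called with no filter or under voom on the recovered reads. The homeobox genes *Tlx3* (distance 0.333) and *Otp* (0.700) were also among the 5 nearest. *Tlx3* is a selector gene of dorsal excitatory neurons, at 4.63 and 5.63 RPKM in Het and 86.2 and 94.1 RPKM in Homo. *Otp*, a gene of neuroendocrine hypothalamic neurons, was at 2.05 and 2.86 RPKM in Het and 31.4 and 37.0 RPKM in Homo. Over 4 libraries such distances describe the size of the change and the spread between libraries, and nothing more.

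For *Prdm13* the nearest genes were *Car11* (distance 0.0856), *Nphs1* (0.0900), *Gm2694*, *Tril* and *Bhlhe22* (0.121). *Nphs1*, which encodes the adhesion protein nephrin, was at 24.2 and 24.9 RPKM in Het and at 62.9 and 64.1 RPKM in Homo. For *Prdm16* they were *1810011O10Rik* (distance 0.0421), *Msx1* (0.0581), *Bhlhe23*, *A930024E05Rik* and *Sirpa* (0.0843). *Msx1*, a homeobox gene of the dorsal midline, was at 3.22 and 3.17 RPKM in Het and at 1.78 and 2.12 RPKM in Homo.

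The genes next to the called members on the chromosome were also read. *Prdm12* lies between *Fubp3*, 17.5 kb away, and *Exosc2*, 14.9 kb away. These had log2 fold changes of 0.19 (adjusted p = 0.0422) and 0.29 (adjusted p = 0.0129), neither past the fold minimum. *Ccnc*, 41.7 kb from *Prdm13*, had a log2 fold change of 0.17 (adjusted p = 0.132). *Nkain3*, 895 kb away on the other side, was at 1.33 and 1.36 RPKM in Het and at 0.694 and 0.489 RPKM in Homo (adjusted p = 0.0348). Its log2 fold change was -1.08 with a standard error of 0.267, opposite in sign to *Prdm13*, and its call was lost when any library was left out. Both neighbours of *Prdm16*, *Arhgef16* and *Actrt2*, were under the filter. The gene *5930403L14Rik* lies within the span of *Prdm16* and was at 6.32 and 7.32 RPKM in Het and at 5.85 and 6.17 RPKM in Homo (log2 fold change -0.18, adjusted p = 0.232). How reads were split where these genes overlap is uncertain.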

How the data were processed

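RNA-seq was performed on polyadenylated RNA of sorted GFP+ cells, with 2 libraries per genotype. The authors aligned reads to mm10 with TopHat2 2.1.0, assigned them to RefSeq genes by featureCounts, applied TMM scaling in edgeR 3.6.8 and deposited RPKM. Groups follow the submitters' labels, and no library was left out.

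RPKM values were used as deposited. The 12046 genes averaging 1 RPKM or more in a genotype were tested in limma 3.58.1 under R 4.3.3 (lmFit, then eBayes with a trend, on log2 of RPKM + 0.1). Tests were two-sided and p-values were adjusted by Benjamini-Hochberg over these genes. RPKM keeps whole multiples of 1 read, so reads were solved from the values guided by annotated exon lengths. This gave whole reads for 99.8% of 19200 genes above 0, and in 72.0% of 17484 genes the solved length lay within 5% of the GENCODE vM21 length. The recovered reads summed to 12168356 and 19348895 in Het and 17259015 and 14599732 in Homo. Intervals and floors from reads cover counting error only. Libraries of a pool differed by a median of 0.078 on the log2 scale in each genotype, regardless of sign.

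Coordinates and promoters are from RefSeq on GRCm38, matched by symbol and gene ID. Promoter windows were searched for 6 of the 9 genes, *Prdm8*, *Prdm10*, *Prdm12*, *Prdm13*, *Prdm15* and *Prdm16*. Named genes are the 9 members, genes of the fixed lists, the 5 tested genes nearest in pattern to each called member, and chromosomal neighbours of called members. Members and lists were chosen with earlier results of these data known. For 3 genes no result is given here, and those of the 3 that stood in a list were dropped from it after values had been seen. The sums with *Prdm12* left out and without *Esam* were chosen after the values were seen. Alternatives were other pseudocounts, filters, scalings and tests, a replicate block, and leaving out each library. Python 3.11.15 with pandas 2.3.3, scipy 1.17.1 and numpy 2.4.6 was used for tables, and matplotlib 3.10.9 for plots.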

Additional observations from a re-analysis of the deposited data

How the results depend on the processing

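*Prdm12* was called higher under all 16 alternatives, with a log2 fold change of 3.27 to 4.57. *Prdm13* was at 1.32 to 1.47 and was called under 15, with an adjusted p = 0.0619 when no filter was applied (over the alternatives 8.26e-15 to 0.0619). *Prdm16* was lower under all 16, at -0.78 to -0.51, and its call was lost under 6: a pseudocount of 1 (-0.51), no filter, limma's treat test, and without Het replicate 1, Het replicate 2 or Homo replicate 1 (adjusted p = 0.0752 to 0.0940 for these 3, and 8.39e-06 to 1 over the alternatives). The count of PRDM genes called higher was 2, and 1 with no filter. The count called lower was 1, 0 under those settings, 0 to 1 with 1 library left out, and 2 at any fold, which added *Prdm10*. *Prdm8* ran from -0.011 to 0.026 with 1 library left out and changed sign without Het replicate 2 (-0.011) and without Homo replicate 2 (-0.00019).

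Over all genes, 440 were called higher and 322 lower. With no filter the counts were 30 and 14, with more genes entering the adjustment. At any fold they were 1176 and 1199, and under the treat test, which tests against the 1.5-fold change itself, 131 and 77. With 1 library left out they were 258 to 437 and 212 to 266, lowest without Homo replicate 2. With the replicate number as a block, 459 and 342 genes were called, and the called PRDM genes were *Prdm12*, *Prdm13* and *Prdm16*. The labels do not say that the number pairs libraries, and the correlation of same-numbered deviations was 0.047. Chosen after seeing the data, voom on the recovered reads called 451 and 357, and a minimum of 20 reads in a library 436 and 329.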
